A study of Homo sapiens with 6 samples.

Results

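The 30 genes described here form much of the S phase programme of a dividing cell: they copy the DNA, protect and repair it while it is copied, and package the new copies into chromatin. They were taken by symbol from a list of 31 S phase genes, and 30 of them were measured, among 26195 genes in the files of the whole series. RFC2, a subunit of the clamp loader, is not analysed here. Levels were read in messenger RNA of single PC9 cells. PC9 is a human lung adenocarcinoma line in long use that carries an activating EGFR mutation and whose growth is blocked by the EGFR inhibitor erlotinib. Drop-seq was used, a droplet method that marks every captured transcript, at its 3' end, by a molecular barcode (unique molecular identifier, UMI). There were 6 conditions with 1 library each.

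In 4 libraries the cells received 2 µM erlotinib for 1 day together with a manipulation of the histone demethylases KDM5A and KDM5B. The first was given CPI-455, an inhibitor of KDM5 enzymes, at 6.25 µM over 4 days, and the labels leave the place of the erlotinib day within those 4 days unclear. The second carried pLVTHM-shKDM5A-GFP and met erlotinib 4 days after transduction. The third is labelled KDM5A and KDM5B shRNA, carried pLVTHM-shKDM5A-GFP with pLVTHM-shKDM5B-GFP, and met the drug after 5 days. The fourth carried the KDM5A cDNA in pLenti-CMV-Hygro-3xFLAG-HA-KDM5A and met the drug after 6 days. The 2 libraries without erlotinib were cells with the scrambled vector pLVTHM-shsc-GFP and untreated cells with neither virus nor drug. Transduced cells were moved to medium with 10% serum and the others were grown in 5%. No library had erlotinib without a KDM5 manipulation, so the drug and those manipulations cannot be told apart in a contrast of erlotinib with none. With 1 library per condition, no condition has a replicate check of its own.

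S phase genes are transcribed in a wave in each cell cycle, from the end of G1, when cyclin-dependent kinases phosphorylate the RB protein and free the E2F transcription factors from it. Growth factor signalling through EGFR feeds into this switch by way of cyclin D, and in cells that leave the cycle, proteins of the RB family stay on E2F target promoters. Genes of mitosis peak later and are controlled through other promoter elements, among them the cell cycle homology region (CHR).

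Promoters of some of the genes are shown here because E2F sites in them are the best known control of this programme. RefSeq entries (GRCh38.p14) were found by symbol for 23 of the 30 genes. In windows running from 250 bases before to 50 bases after the annotated start, 4 spellings of the E2F site were searched on both strands: TTTCGCGC, TTTGGCGC, TTTCCCGC and TTTGCCGC. A match lay in 11 of the 23 windows, or 47.8%, against 3.33% of all 27305 promoters of the table. The CCAAT box (CCAAT) lay in 17 windows, or 73.9%, against 35.7% of all promoters. The Sp1 box (GGGCGG) lay in 19, or 82.6%, against 44.6%. The CHR letters TTTGAA lay in 1 of the 23 windows, that of BRIP1, or 4.35%, against 15.4% of all promoters. Of the 16 mitosis genes with an entry, 12 held the CHR letters, 2 an E2F match, 14 the CCAAT box and 11 the Sp1 box. E2F matches also lay in 6 of 9 promoters of origin loading genes, 4 of 8 of other repair genes and 8 of 21 of other replication fork genes. They lay in 1 of 7 promoters of deoxynucleotide synthesis genes and 1 of 8 of other chromatin supply genes. A match of letters is a description, not a bound site.

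The 150 bases before the start are given 5' to 3' on the gene's own strand, with E2F matches in capitals. They are chr20:5126623-5126772 (minus strand) for PCNA, chr16:85688955-85689104 (minus) for GINS2, chr1:212035598-212035747 (plus) for DTL, chr10:94545638-94545787 (plus) for HELLS and chr6:89829730-89829879 (plus) for CASP8AP2. The first 4 genes fell steeply with erlotinib and CASP8AP2 fell least of the 30.
PCNA: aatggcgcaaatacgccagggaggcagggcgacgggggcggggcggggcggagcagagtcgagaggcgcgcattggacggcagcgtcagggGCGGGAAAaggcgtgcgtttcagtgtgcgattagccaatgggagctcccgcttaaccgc
GINS2: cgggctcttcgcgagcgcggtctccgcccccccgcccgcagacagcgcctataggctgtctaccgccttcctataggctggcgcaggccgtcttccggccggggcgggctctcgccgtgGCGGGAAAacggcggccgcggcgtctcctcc
DTL: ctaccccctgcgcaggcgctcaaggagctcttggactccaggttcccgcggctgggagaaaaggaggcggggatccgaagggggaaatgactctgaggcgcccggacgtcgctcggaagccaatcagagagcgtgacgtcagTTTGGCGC
HELLS: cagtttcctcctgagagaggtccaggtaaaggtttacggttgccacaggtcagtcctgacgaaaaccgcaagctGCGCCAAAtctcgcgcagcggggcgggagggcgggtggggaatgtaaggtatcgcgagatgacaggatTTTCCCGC
CASP8AP2: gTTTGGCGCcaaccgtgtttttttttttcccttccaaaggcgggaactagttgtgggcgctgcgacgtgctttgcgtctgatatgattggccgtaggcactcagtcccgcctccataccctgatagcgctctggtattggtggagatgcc
The match began 59 bases before the start in PCNA, 31 before it in GINS2 and 8 before it in DTL. HELLS, which had 2 matches, held them 76 and 8 bases before the start. In CASP8AP2 the match lay farthest away, 149 bases before the start. Other windows with a match were those of POLA1, CLSPN, EXO1, UHRF1, CDCA7 and UBR7.

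Cells were kept with at least 500 UMIs and at most 20% mitochondrial UMIs, which left between 131 and 374 cells in the 4 erlotinib libraries, 263 scrambled and 1166 untreated cells. Summed UMIs were between 590091 and 1596385 per erlotinib library, 1294422 in scrambled and 3956647 in untreated cells. Untreated cells were the shallowest, with a median of 1493.5 UMIs, against between 2985.5 and 3762.5 in the other 5 libraries. The mitochondrial share of UMIs was between 7.04% and 9.18% with erlotinib, against 5.03% in scrambled and 3.98% in untreated cells. The erlotinib calls of the 30 genes given below all stood with cells limited to 10% mitochondrial UMIs. Kept barcodes shared by libraries numbered 1, between CPI-455 and the library labelled KDM5A and KDM5B shRNA, and 0 in the other pairs. KDM5A stood at 56.4 CPM (UMIs scaled to a fixed total per library) with KDM5A shRNA, 41.3 in the library labelled KDM5A and KDM5B shRNA and 164 for its cDNA, against 81.9 in scrambled cells. KDM5B went against its label, at 138 CPM (95% Poisson interval 112 to 168) in the library labelled KDM5A and KDM5B shRNA against 46.4 (35.4 to 59.7) in scrambled cells. It also stood above scrambled in the other erlotinib libraries, at 102 CPM with CPI-455, 151 with KDM5A shRNA and 94.9 with KDM5A cDNA. Of 7 epithelial line markers 6 were in the files. Of these 0 fell with erlotinib, against 13.5% of all tested genes, and 1, CDH1 (E-cadherin), rose, against 10.0%. Markers of other cell types, of which 6 of 13 were in the files, summed to 6.26 to 13.8 CPM in the erlotinib libraries and to 4.64 to 10.1 CPM in the others.

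All 30 S phase genes fell in the erlotinib libraries. Their summed level was 470 CPM with CPI-455 (426 to 518), 406 with KDM5A shRNA (375 to 438), 424 in the library labelled KDM5A and KDM5B shRNA (378 to 475) and 471 for KDM5A cDNA (417 to 530). It was 3802 CPM in scrambled cells (3697 to 3910) and 2960 in untreated cells (2907 to 3014). The highest erlotinib library was thus 6.28-fold below the lower of the libraries without the drug. The erlotinib libraries lay close together, their highest sum being 1.16-fold their lowest. These intervals cover counting error only.

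**Figure D1:**
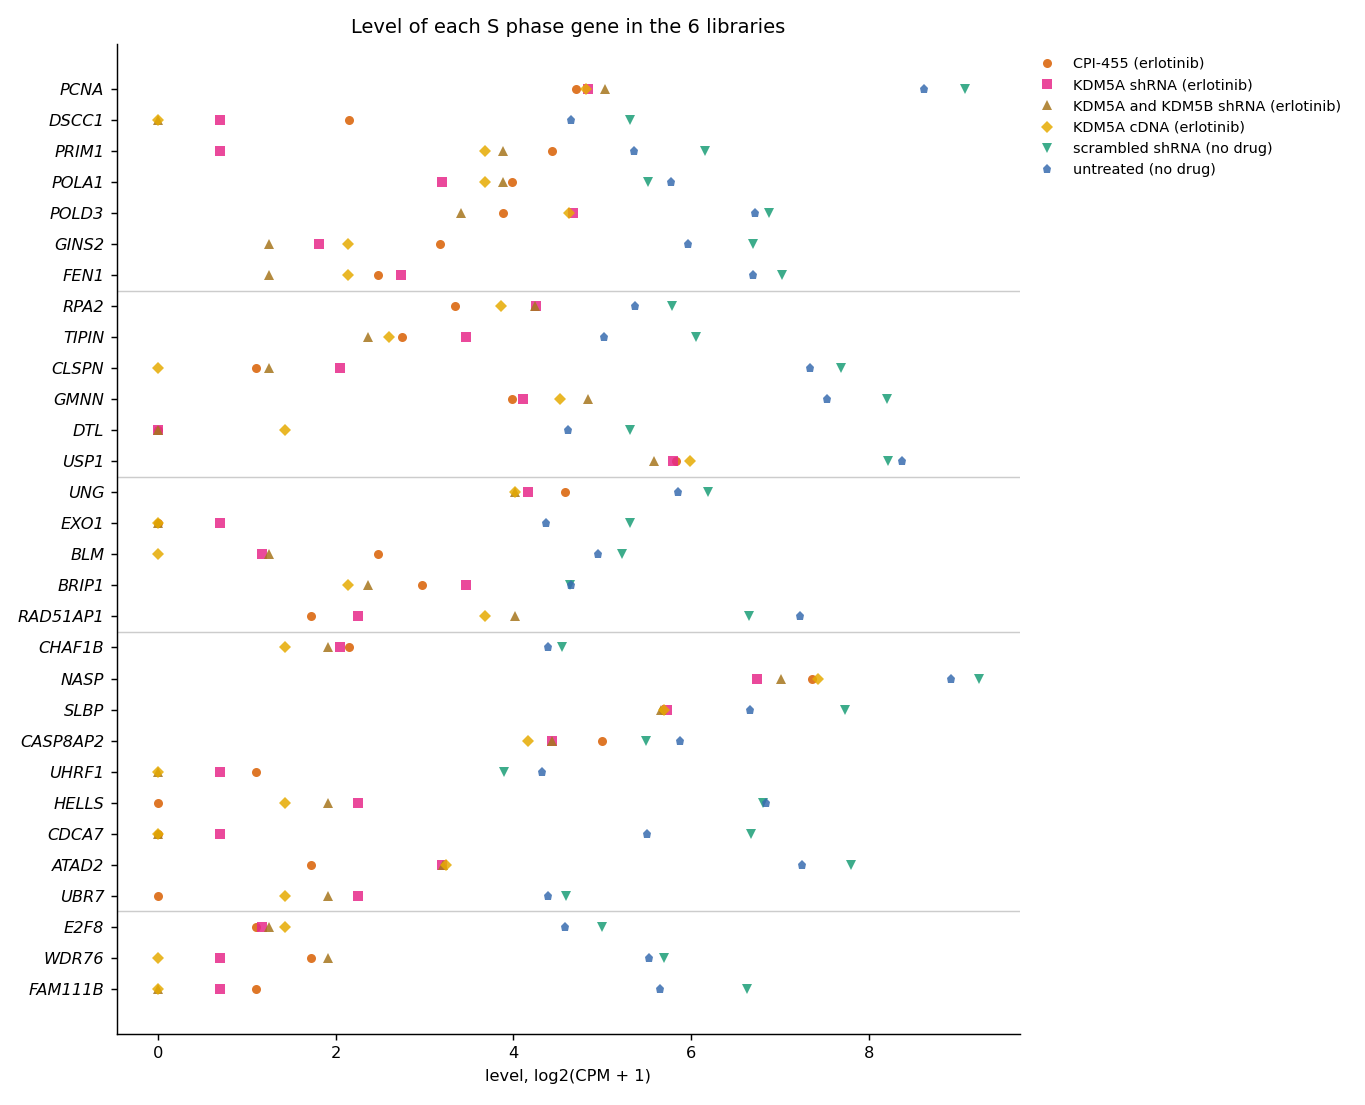
Level of each of the 30 S phase genes in each library, as log2(CPM + 1), ordered by role, with grey lines between the role groups. In every row the 4 erlotinib libraries lie left of scrambled shRNA and untreated, and many of them at or near 0.

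The contrast of 4 erlotinib libraries with 2 without the drug was fitted over 10445 genes with edgeR's quasi-likelihood test and Benjamini-Hochberg adjustment. It asks which genes differ beyond the spread among these 6 libraries, and the erlotinib libraries are not replicates of 1 condition. It called 30 of the 30 genes lower, against 13.5% of all tested genes, and none higher, against 10.0% of all tested genes. In all 30 every erlotinib library lay below both others, which held for 26.7% of all tested genes. The median fitted log2 fold was -4.03, from -7.68 for CDCA7 to -1.14 for CASP8AP2, against 0.01 over all tested genes. Only 12 of the 30 reached the filter's level in at least 2 erlotinib libraries, and these 12 were all called lower, with a median of -2.17, against 10.9% of the 9641 genes that reached it likewise. The other 18 entered the test through the libraries without drug, so they could hardly have differed in the other direction.

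Of the replication machinery, all 7 measured genes fell. PCNA, the sliding clamp that holds DNA polymerase on its template, stood at 25.2 CPM with CPI-455, 27.6 with KDM5A shRNA, 31.7 in the library labelled KDM5A and KDM5B shRNA and 27.1 for KDM5A cDNA, against 543 in scrambled and 394 in untreated cells. The erlotinib libraries were nearly level with each other and far below the rest (log2 fold -4.03, SE 0.23, edgeR adjusted p = 2.96e-05). GINS2, a subunit of the replicative helicase, stood at 8.01, 2.51, 1.38 and 3.39 CPM in the same 4 libraries, against 103 in scrambled and 61.7 in untreated cells. FEN1, the nuclease that trims Okazaki fragments, had 1.38 to 5.64 CPM in the erlotinib libraries, compared with 129 in scrambled and 103 in untreated cells. DSCC1, part of an alternative clamp loader, was at 0 UMIs in 2 erlotinib libraries and had 4 UMIs over all 4, against 145 over the libraries without drug.

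POLA1, POLD3 and PRIM1 kept more of their level than the other genes of the replication machinery measured here. POLA1, the catalytic subunit of polymerase alpha, had 8.14 to 14.9 CPM in the erlotinib libraries, compared with 44.8 in scrambled and 53.8 in untreated cells (log2 fold -2.02, SE 0.31, edgeR adjusted p = 0.00139). POLD3, a subunit of polymerase delta, had 9.64 to 24.4 CPM in the erlotinib libraries, compared with 117 in scrambled and 104 in untreated cells. PRIM1, the primase that lays down RNA primers with polymerase alpha, was uneven: it stood at 20.6 CPM with CPI-455, 0.626 with KDM5A shRNA, 13.8 in the library labelled KDM5A and KDM5B shRNA and 11.9 for KDM5A cDNA, against 70.3 in scrambled and 39.9 in untreated cells. The KDM5A shRNA value is 1 UMI, while the other erlotinib libraries had 18, 10 and 7. PRIM1 had the least secure fall of the 30 (log2 fold -2.32, SE 0.70, edgeR adjusted p = 0.0442), and its adjusted p was between 0.0685 and 0.197 without the library labelled KDM5A and KDM5B shRNA, without KDM5A cDNA, without scrambled or without untreated.

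**Figure D2:**
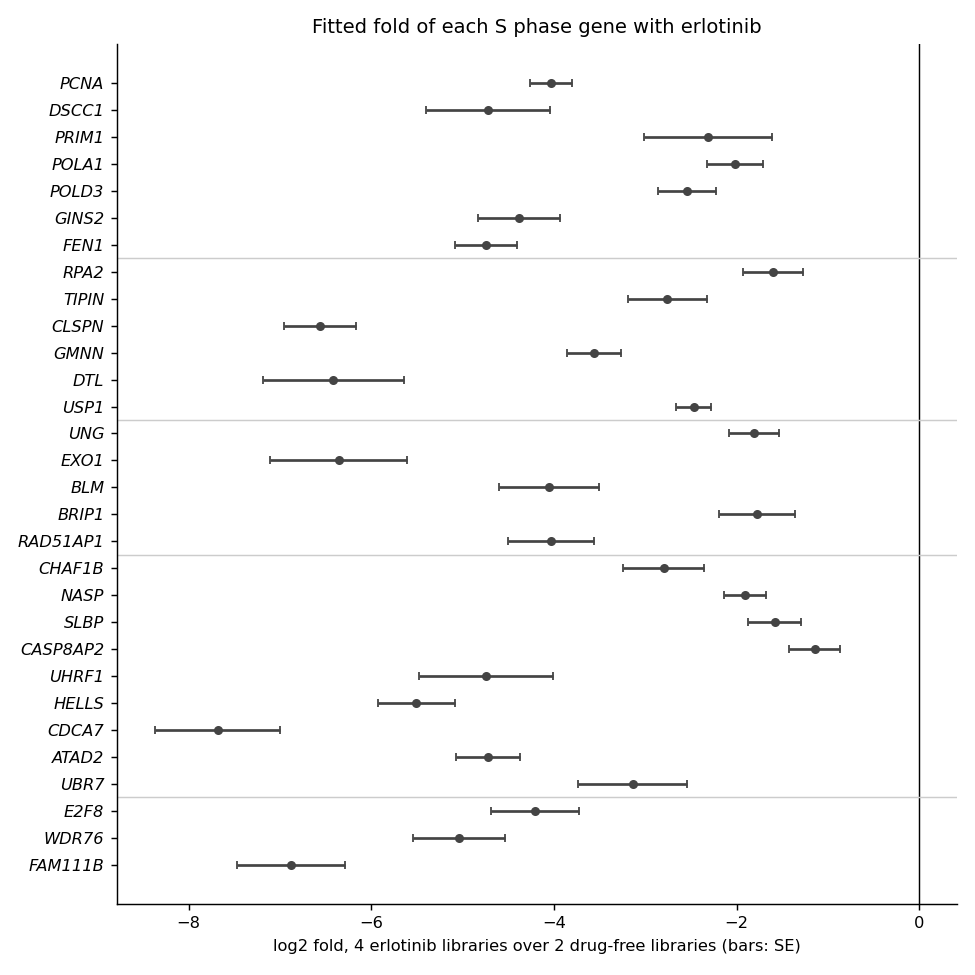
Fitted log2 fold of each gene, 4 erlotinib libraries over 2 libraries without drug, with its SE as bars and the same order of roles. All 30 points lie below 0, from -7.68 for CDCA7 to -1.14 for CASP8AP2.

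All 6 genes of fork protection and replication control fell, and they spread widely. CLSPN, the adaptor that passes the stalled-fork signal to the checkpoint kinase CHK1, stood at 1.14, 3.13, 1.38 and 0 CPM with CPI-455, KDM5A shRNA, the library labelled KDM5A and KDM5B shRNA and finally KDM5A cDNA, against 205 in scrambled and 161 in untreated cells. It was all but absent with erlotinib (log2 fold -6.56, SE 0.40, edgeR adjusted p = 3.29e-05). DTL, the ubiquitin ligase receptor that destroys the licensing factor CDT1 in S phase, had 1 UMI over the 4 erlotinib libraries and 143 over the libraries without drug. GMNN (geminin), which blocks relicensing of origins, had 14.9 to 27.6 CPM in the erlotinib libraries, compared with 294 in scrambled and 183 in untreated cells. TIPIN, of the fork protection complex, had 4.13 to 10.0 CPM in the erlotinib libraries, compared with 65.7 in scrambled and 31.3 in untreated cells.

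RPA2 and USP1 fell less. RPA2, a subunit of the protein that coats single-stranded DNA, stood at 9.16 CPM with CPI-455 and between 13.6 and 18.2 in the other erlotinib libraries, against 54.1 in scrambled and 40.4 in untreated cells (log2 fold -1.60, SE 0.33, edgeR adjusted p = 0.0074). USP1, which removes ubiquitin from PCNA and FANCD2, had 46.8 to 62.7 CPM in the erlotinib libraries, compared with 297 in scrambled and 330 in untreated cells (log2 fold -2.47, SE 0.19, edgeR adjusted p = 5.62e-05). USP1 was among the few of these genes that were not higher in scrambled than in untreated cells.

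The 5 genes of DNA repair and recombination all fell. EXO1, an exonuclease of mismatch repair and end resection, had 1 UMI over the 4 erlotinib libraries, in the KDM5A shRNA library, against 128 over the libraries without drug. BLM, the helicase mutated in Bloom syndrome, had 0 to 4.58 CPM in the erlotinib libraries, compared with 36.3 in scrambled and 30.1 in untreated cells. UNG, which removes uracil from DNA, kept 15.2 to 22.9 CPM in the erlotinib libraries, compared with 71.8 in scrambled and 56.6 in untreated cells (log2 fold -1.81, SE 0.27, edgeR adjusted p = 0.00135). BRIP1, a helicase partner of BRCA1, had 3.39 to 10.0 CPM in the erlotinib libraries, compared with 23.9 in scrambled and 24.0 in untreated cells (log2 fold -1.78, SE 0.42, edgeR adjusted p = 0.013). Its adjusted p was 0.0507 without scrambled and 0.0636 without untreated. RAD51AP1, which acts in homologous recombination, stood at 2.29 CPM with CPI-455, 3.76 with KDM5A shRNA, 15.2 in the library labelled KDM5A and KDM5B shRNA and 11.9 for KDM5A cDNA, against 99.7 in scrambled and 149 in untreated cells.

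The 9 genes of chromatin and histone supply held both the steepest and the shallowest falls. CDCA7, which recruits the remodeller HELLS to chromatin, had 1 UMI over the 4 erlotinib libraries, against 131 in scrambled and 176 in untreated cells. HELLS itself stood at 0, 3.76, 2.76 and 1.69 CPM with CPI-455, KDM5A shRNA, the library labelled KDM5A and KDM5B shRNA and finally KDM5A cDNA, against 111 in scrambled and 114 in untreated cells. ATAD2, a bromodomain ATPase, stood at 2.29 CPM with CPI-455 and between 8.14 and 8.47 in the other erlotinib libraries, against 222 in scrambled and 152 in untreated cells. UHRF1, which guides maintenance DNA methylation, had 2 UMIs over the 4 erlotinib libraries and 93 over the others. CHAF1B, a subunit of the chromatin assembly factor CAF-1, had 1 to 5 UMIs in each erlotinib library, compared with 29 in scrambled and 79 in untreated cells. UBR7, a ubiquitin ligase that binds histones, had 0 to 6 UMIs in each erlotinib library, compared with 30 in scrambled and 79 in untreated cells.

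NASP, SLBP and CASP8AP2 stayed readily measurable, as the 3 genes of the chromatin group that reached the filter's level in at least 2 erlotinib libraries. NASP, the chaperone that holds histones H3 and H4, stood at 164 CPM with CPI-455, 106 with KDM5A shRNA, 128 in the library labelled KDM5A and KDM5B shRNA and 171 for KDM5A cDNA, against 603 in scrambled and 486 in untreated cells. SLBP, which binds the stem-loop of histone messenger RNAs, was almost level, between 49.6 and 52.0 CPM in the 4 erlotinib libraries, against 212 in scrambled and 101 in untreated cells (log2 fold -1.58, SE 0.29, edgeR adjusted p = 0.00411). CASP8AP2, needed for histone gene transcription, stood at 30.9, 20.7, 20.7 and 16.9 CPM with erlotinib, against 44.0 in scrambled and 57.6 in untreated cells. It fell least (log2 fold -1.14, SE 0.28, edgeR adjusted p = 0.0159), and its adjusted p was 0.0508 without the library labelled KDM5A and KDM5B shRNA and 0.114 without untreated. As a result of these unequal falls, the 3 genes NASP, USP1 and SLBP made up 30.8%, 12.6% and 11.7% of the group's UMIs in the erlotinib libraries, against 16.2%, 10.2% and 4.05% in the libraries without drug. PCNA made up 6.38% with erlotinib and 13.6% without.

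The last 3 genes are grouped as other E2F-responsive genes, but none of them had a promoter entry, so no E2F site was searched in them. E2F8, a repressive member of the E2F family, had 1 or 2 UMIs in each erlotinib library, against 40 in scrambled and 91 in untreated cells. WDR76, a WD-repeat protein, had 5 UMIs over the 4 erlotinib libraries and FAM111B, a protease-like protein, had 2. Without the drug WDR76 had 245 UMIs and FAM111B had 322. The 3 together had 1.69 to 4.58 CPM in the erlotinib libraries, compared with 180 in scrambled and 118 in untreated cells, which was the steepest fall of the 5 role groups. That fall rests on 1 to 4 UMIs per erlotinib library, and none of the 3 genes reached the filter's level in at least 2 of these libraries. The chromatin group, between 199 and 253 CPM with erlotinib against 1353 in scrambled and 1013 in untreated cells, was the shallowest.

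The 11 genes with an E2F match had a median log2 fold of -4.74, from -7.68 to -1.14, and the 12 with an entry but no match one of -2.62, from -4.74 to -1.58. The ranges overlap, and CASP8AP2, with a match, had the smallest fall of all. Only 3 of the 11, against 7 of the 12, reached the filter's level in at least 2 erlotinib libraries, and among these the order was the reverse, with medians of -2.02 with a match and -2.32 without. This is a description of fitted values, with no test.

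The rest of the replication pathway fell with these genes. Many of the genes in these lists entered the test through the libraries without drug, as above. The number that reached the filter's level in at least 2 erlotinib libraries is therefore given for each list. In the fork, origin loading, deoxynucleotide and other repair lists, every gene that reached it was called lower, with medians of -1.45, -3.20, -2.25 and -1.78. Of the 6 other chromatin genes that reached it, 4 were called lower. Over all tested genes 13.5% were called lower, and 10.9% of those that reached it. Of 24 other replication fork genes, 10 of which reached it, 24 fell and none rose, among them RPA3 (log2 fold -1.36, SE 0.25, edgeR adjusted p = 0.00377), a partner of RPA2, and RFC1 (-1.12), the large subunit of the clamp loader. Of 11 genes of origin loading, 5 of which reached it, 11 fell, among them the helicase subunits MCM7 (-2.25) and MCM6 (-5.11), of which MCM6 did not reach it. All 8 genes of deoxynucleotide synthesis, 7 of which reached it, fell, with DUT (-1.48), which destroys dUTP, among the shallowest, and TYMS (-4.26), which makes thymidylate. All 12 other repair genes, 4 of which reached it, fell, such as MSH6 (-1.48) of mismatch repair and FANCI (-3.36) of the Fanconi pathway. Of 8 other chromatin genes, 6 of which reached it, 6 fell and none rose, while the histone chaperone ASF1A (0.07, SE 0.26, edgeR adjusted p = 0.874) and NPAT (-0.56, adjusted p = 0.278), an activator of histone genes, were not called.

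Mitosis genes fell too, but not evenly across libraries. Of 20 listed, 18 fell and none rose, against 13.5% and 10.0% of all tested genes. Of the 17 that reached the filter's level in at least 2 erlotinib libraries, 15 fell, against 10.9% of all genes that reached it. TOP2A (-4.18), the topoisomerase that untangles chromosomes, was among those that fell, while CCNB2 and CDC20 were not called. Their summed level was 723 CPM with CPI-455, 167 with KDM5A shRNA, 610 in the library labelled KDM5A and KDM5B shRNA and 549 for KDM5A cDNA, against 2960 in scrambled and 4604 in untreated cells. The highest erlotinib library was 4.32-fold the lowest for mitosis genes and 1.16-fold for the S phase genes. The order of the libraries without drug was the opposite of that for S phase genes.

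**Figure D3:**
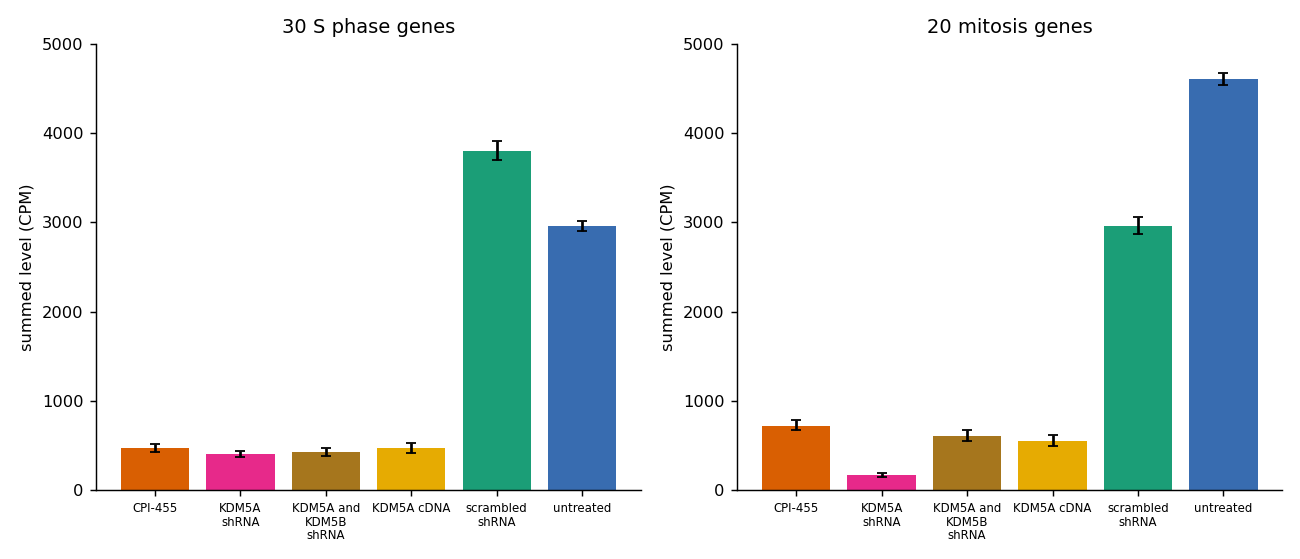
Summed level in CPM of the 30 S phase genes (left) and of 20 mitosis genes (right) in each library, with exact 95% Poisson intervals as error bars. S phase sums are nearly level over the erlotinib libraries, 406 to 471 CPM, while mitosis sums run from 167 CPM with KDM5A shRNA to 723 with CPI-455.

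Each erlotinib library was then set against the library without drug of the same virus state, as a ratio with a counting interval and no test. Of these comparisons, 3 share the scrambled library. CPI-455 with erlotinib had 0.159 of the untreated summed level (0.144 to 0.175), and 27 of the 30 genes were at least 2-fold lower, against 16.0% of all genes with 10 UMIs or more over both libraries. The other 3 genes, PRIM1, SLBP and CASP8AP2, were lower too but short of 2-fold. Their ratios were 0.516 (0.298 to 0.842), 0.501 (0.358 to 0.685) and 0.536 (0.346 to 0.801). KDM5A shRNA with erlotinib had 0.107 of the scrambled level (0.0982 to 0.116), with 30 of 30 at least 2-fold lower against 17.8% of all genes. The library labelled KDM5A and KDM5B shRNA had 0.112 (0.0991 to 0.125), with 30 of 30 against 18.6%. KDM5A cDNA with erlotinib had 0.124 (0.109 to 0.140), with 30 of 30 against 17.3%.

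The erlotinib libraries differed little among themselves in the summed level of the S phase genes. Intervals of single genes were often too wide to show this, as for GINS2 with CPI-455 against KDM5A shRNA, 3.20-fold (0.813 to 14.9), from 7 and 4 UMIs. Set against KDM5A shRNA, which had the most summed UMIs of them, the summed level was 1.16-fold with CPI-455 (1.02 to 1.31), 1.05-fold in the library labelled KDM5A and KDM5B shRNA (0.910 to 1.20) and 1.16-fold with KDM5A cDNA (1.00 to 1.34). PRIM1 had an interval above 1 in all 3, at 20.6, 13.8 and 11.9 CPM against 0.626 CPM. Its ratios of 32.9 (5.19 to 1370), 22.0 (3.13 to 955) and 18.9 (2.43 to 853) rest on 1 UMI. With KDM5A cDNA, PRIM1 had fewer than 10 UMIs over both libraries. NASP was 1.54-fold with CPI-455 (1.22 to 1.93) and 1.61-fold with KDM5A cDNA (1.24 to 2.07). In the library labelled KDM5A and KDM5B shRNA, RAD51AP1 was 4.03-fold (1.37 to 13.3), from 11 and 6 UMIs, while with KDM5A cDNA its interval held 1 (0.908 to 11.4). In the library labelled KDM5A and KDM5B shRNA, POLD3 was 0.395-fold (0.149 to 0.893), from 7 and 39 UMIs. Among genes with at least 10 UMIs over both libraries, the interval excluded 1 for 2 of 16 with CPI-455, against 29.3% of all genes, for 3 of 16 in the library labelled KDM5A and KDM5B shRNA, against 16.5%, and for 1 of 15 with KDM5A cDNA, against 25.6%. An interval excludes 1 more readily at high counts. Most S phase genes had few UMIs in these libraries and all genes were not matched to them in count, so the shares are not directly comparable.

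Scrambled cells, which had virus and 10% serum, were set against untreated cells, which had neither virus nor that medium. Their summed level was 1.28-fold (1.24 to 1.33), and 15 of the 30 genes had a counting interval above 1, against 14.6% of all genes. For 1 gene it lay below 1, against 16.4% of all genes, and for 14 it held 1. At least 2-fold higher were 3 of the 30, against 7.20% of all genes, and they were CDCA7 at 2.28-fold (1.80 to 2.87), SLBP at 2.11-fold (1.80 to 2.47) and TIPIN at 2.10-fold (1.57 to 2.78). FAM111B at 1.99-fold (1.58 to 2.50) and EXO1 at 1.96-fold (1.35 to 2.83) came next. Lower in scrambled was RAD51AP1, at 99.7 against 149 CPM, a ratio of 0.671 (0.550 to 0.813). USP1 at 0.901-fold (0.802 to 1.01) and HELLS at 0.978-fold (0.805 to 1.18) held 1 in narrow intervals. With cells divided at 3000 UMIs, a limit chosen after seeing the data, those at or above it had a summed level of 3843 CPM in scrambled and 3025 in untreated cells, and those below it had 3551 CPM in scrambled and 2777 in untreated cells, so the difference was about as large at either depth. Virus, serum and library cannot be told apart here.

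**Figure D4:**
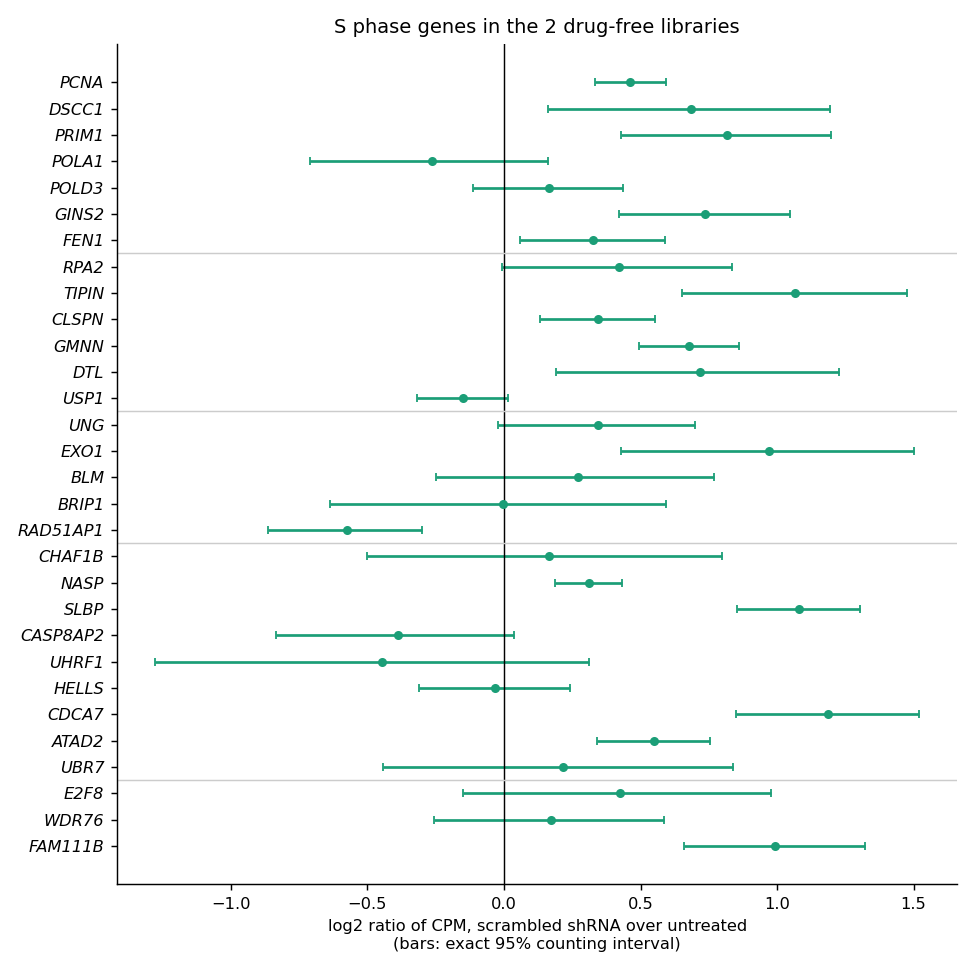
Log2 ratio of CPM in scrambled shRNA over untreated for each gene, with exact 95% counting intervals as bars. Most genes lie above 0, led by CDCA7, SLBP and TIPIN, and only the interval of RAD51AP1 lies wholly below 0.

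Per cell the same contrast was seen after every cell had been thinned to 1000 UMIs, which left 164 cells with CPI-455, 332 with KDM5A shRNA, 124 in the library labelled KDM5A and KDM5B shRNA, 105 with KDM5A cDNA, 222 scrambled and 822 untreated cells. At least 3 S phase UMIs were found in 1.83% (exact binomial 95% interval 0.379 to 5.25), 2.71% (1.25 to 5.08), 4.03% (1.32 to 9.16) and 2.86% (0.593 to 8.12) of cells in the 4 erlotinib libraries in that order, against 69.4% of scrambled (62.9 to 75.4) and 47.7% of untreated cells (44.2 to 51.2). The erlotinib libraries overlap each other in these intervals and lie far from both others. Without thinning, the shares were 34.2%, 22.5%, 32.9% and 30.5%, against 86.3% of scrambled and 62.3% of untreated cells. The line holds no cell type that should lack these genes and could serve to gauge free RNA. Barcodes under 500 UMIs were read as well, but they were not shown to be empty of cells. Their summed S phase level was between 300.4 and 403 CPM with erlotinib, against 3036 in scrambled and 2416 in untreated. In scrambled (95% Poisson interval 2701 to 3401) and untreated (2228 to 2615) it lay below the level of the kept cells. With erlotinib it rests on 13 to 20 UMIs per library, and every interval held the level of the kept cells. It was low where that of the kept cells was low, so it cannot gauge free RNA alone. The amount of free RNA in the cells is therefore not known, and a lone S phase UMI in a cell cannot be told apart from it.

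At least 5 S phase UMIs were found in 1 thinned cell of the 4 erlotinib libraries, with KDM5A shRNA, or 0.301% (0.00763 to 1.67), against 37.8% of scrambled and 23.0% of untreated cells. None of 164 cells with CPI-455, 124 in the library labelled KDM5A and KDM5B shRNA and 105 for KDM5A cDNA reached it, which allows shares of up to 1.83%, 2.42% and 2.86% when 0 is read against 3 cells. The upper bounds of their exact binomial intervals were 2.22%, 2.93% and 3.45%. That 1 cell, unthinned, had 4667 UMIs, of which 31 were S phase UMIs from 16 of the genes, a level of 6642 CPM, while the next cell of its library stood at 2046. It held 4 of the library's 5 CLSPN UMIs, 3 of its 6 HELLS UMIs and its only WDR76 and FAM111B UMI, with 18 UMIs of mitosis genes. Without it the library's summed level was 388 CPM. It was singled out after its values were seen, and what set it apart was not tested.

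**Figure D5:**
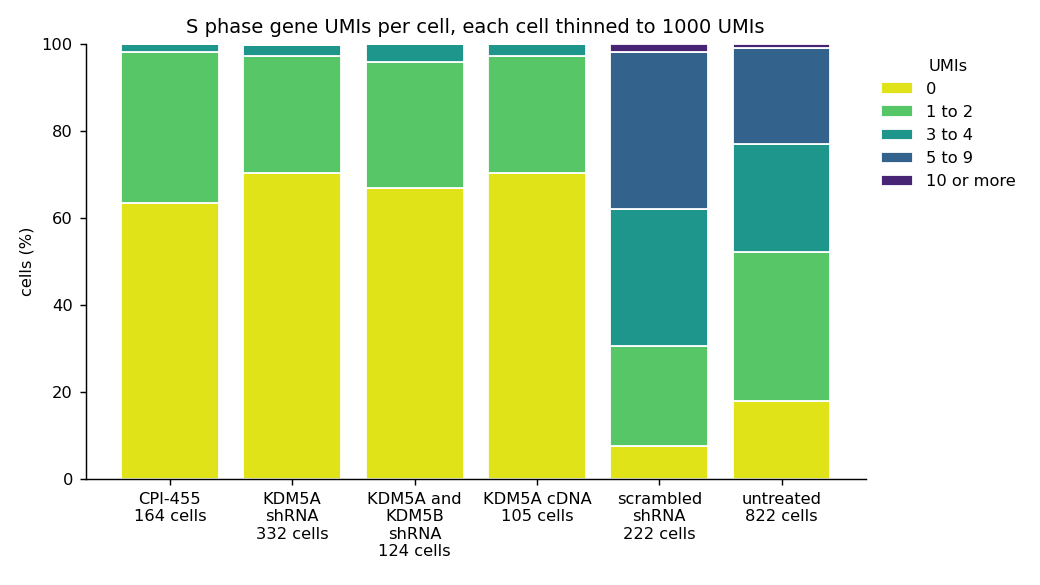
Share of cells by number of S phase UMIs, with each cell thinned to 1000 UMIs. Cells with 0 UMIs are between 63.4% and 70.5% of the erlotinib libraries, 7.66% of scrambled and 18.0% of untreated cells.

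In untreated cells, a UMI of PCNA went with more UMIs of the other genes. Untreated cells with a PCNA UMI (236 cells) had 3390 CPM of the other 29 genes, against 2082 in those without (586 cells), a ratio of 1.63 (1.49 to 1.78). The ratio was above 1 for 27 of the 29, with 11 counting intervals above 1, among them UNG at 3.36 (1.72 to 6.70) and CLSPN at 2.67 (1.88 to 3.79). In scrambled cells the ratio was 1.16 (0.996 to 1.34) and 0 of the 29 intervals lay above 1. Cells are not replicates and these intervals cover counting error only.

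The genes also differed in how they went with mitosis genes in untreated cells. Cells with 1 or 2 mitosis UMIs (199 cells) had 1.80-fold (1.59 to 2.04) the summed S phase level of cells with none (209 cells), and FAM111B was 12.1-fold (2.98 to 106), from 23 and 2 UMIs. Cells with at least 3 mitosis UMIs (414 cells) had 2964 CPM of S phase genes against 1971 in cells with none, with a ratio interval of 1.34 to 1.69. RAD51AP1 was 6.35-fold (2.95 to 16.2) in these cells, at 213 CPM against 33.5, and USP1 1.77-fold (1.24 to 2.58). UNG, at 33.8 CPM against 76.6, or 0.442-fold (0.200 to 0.966), was the only 1 of the 30 genes with an interval below 1. With 30 genes looked at, 1 such interval can arise from counting error alone. SLBP was 1.10-fold (0.652 to 1.92). Of the 30 genes in untreated cells, 9 had an interval above 1 for 1 or 2 mitosis UMIs and 8 for at least 3. In scrambled cells, with 28 cells that had no mitosis UMI, the interval lay above 1 for 0 and 1 of the 30 genes, and below 1 for none. A ratio could be formed for 29 genes in untreated and 24 in scrambled cells. The others had no UMI in the cells without mitosis UMIs.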

How the data were processed

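The authors' deposited files hold UMI counts for 6 Drop-seq libraries, with gene symbols in rows and barcodes in columns, as whole numbers that were not normalized. Per the submitters' processing notes, STAR and FastQC were used with GRCh37.p13 (hg19). Versions, the counting tool and the choice of barcodes are not given in the sources used here. A symbol with no row in a library was taken as 0 there.

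Cells were kept with at least 500 UMIs and at most 20% mitochondrial UMIs, and UMIs were summed per library. Doublets were not removed, since those of 1 line resemble single cells. Levels are CPM with exact Poisson 95% intervals. A count of 0 was read against 3 counts, or 0.758 to 5.08 CPM. The summed counts were fitted with edgeR 4.0.16 (TMM, filterByExpr, robust quasi-likelihood, Benjamini-Hochberg threshold 0.05), and each SE is the fold divided by the root of its F. Fitted folds of genes near 0 depend on the prior count. With 4 libraries against 2, p-values measure only the spread among these libraries, and the labels name no separate cultures. DESeq2 1.42.0 and limma 3.58.1 were alternatives, tested with edgeR on simulated data. For pairs, ratios of CPM carry an exact conditional interval and no test. Folds past 2 were counted after adding 0.5 to both counts, for genes whose 2 counts summed to 10 or more. Cells were thinned to 1000 UMIs by seeded draws for shares, with exact binomial intervals. Pseudogene copies of PCNA, FEN1 and RPA2 had 0 to 3 UMIs per library. Promoters are from RefSeq (GRCh38.p14), a build other than that of the counts.

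All 31 listed genes were to be named, and up to 4 genes with the most UMIs in each other list. The genes and lists were chosen with earlier results of these data known.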

Additional observations from a re-analysis of the deposited data

Results flagged for a closer look

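A library apart from the other 3 was looked for among the 4 erlotinib libraries in 36 levels. Chance alone flags about 1 in 20 of normally spread levels, a rate that does not hold for counts near 0. Such a library was found for 4 genes. DTL stood at 1.69 CPM with KDM5A cDNA and at 0 in the other 3, which is 1 UMI. EXO1 stood at 0.626 CPM with KDM5A shRNA, also 1 UMI, and CDCA7 likewise at 0.626 CPM, each with 0 in the other 3 libraries. In these 3 genes the gap is that between 1 UMI and none, a pattern that the rule always flags. ATAD2 stood at 2.29 CPM with CPI-455, from 2 UMIs, while the other 3 libraries lay between 8.14 and 8.47 CPM.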

How the results depend on the processing

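All 30 genes were called lower with RLE size factors, with no filter, with DESeq2, with limma-voom, with at least 1000 UMIs per cell, with at most 10% mitochondrial UMIs, with all barcodes, without CPI-455 and without KDM5A shRNA. Leaving out each library in turn gave between 27 and 30 of them, and PRIM1, BRIP1 and CASP8AP2 were the genes lost. Thinning every cell to 1000 UMIs left 13 of the genes tested, of which 12 were called, with CASP8AP2 lost (edgeR adjusted p = 0.0615). With transduced libraries only, 26 were called. There PRIM1, BRIP1, CASP8AP2 and UHRF1 had adjusted p-values between 0.053 and 0.0975, and the lone scrambled library is assumed to vary like the others. No fold of these genes changed sign. Of the refitted folds, 420 kept their call and 13 lost it.

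Over all genes, 529 fell and 487 rose after thinning, and 856 fell and 479 rose with transduced libraries only. Without 1 library each, between 860 and 1341 fell and between 500 and 1176 rose. Fewer genes were tested after thinning (4425); the other causes were not tested.

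Without NASP the summed level was 307 CPM with CPI-455, 299 with KDM5A shRNA, 296 in the library labelled KDM5A and KDM5B shRNA, 299.95 with KDM5A cDNA, 3200 in scrambled and 2474 in untreated cells. Cells of at least 3000 UMIs, an alternative chosen after seeing the data, gave 3843 CPM in scrambled and 3025 CPM in untreated cells.

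The share of cells depends on its threshold by construction. At least 1 S phase UMI was found in 36.6% of cells with CPI-455, 29.5% with KDM5A shRNA, 33.1% in the library labelled KDM5A and KDM5B shRNA and 29.5% for KDM5A cDNA, against 92.3% of scrambled and 82.0% of untreated cells. At least 5 were found in 0%, 0.301%, 0% and 0% of the same 4 libraries, against 37.8% of scrambled and 23.0% of untreated cells. Thinned to 2000 UMIs, at least 3 were found in 6.45% with CPI-455, 4.98% with KDM5A shRNA, 3.77% in the library labelled KDM5A and KDM5B shRNA and 7.95% for KDM5A cDNA, against 90.2% of scrambled and 74.5% of untreated cells. Without NASP and thinned to 1000 UMIs, at least 3 were found in 1.22% of cells with CPI-455 and 0.602% with KDM5A shRNA, 2 cells each. The share was 0.806% in the library labelled KDM5A and KDM5B shRNA, which is 1 cell, and 0% for KDM5A cDNA. It was 60.4% in scrambled and 40.0% in untreated cells.

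No paired analysis was possible because each condition has 1 library and the labels carry no replicate numbers. Depth limits single genes: 1 UMI was worth up to 1.69 CPM.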
